A study of Arabidopsis thaliana with 11 samples.

Results

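NdhL, NdhN and NdhS are nuclear genes that encode subunits of the chloroplast NADH dehydrogenase-like (NDH) complex. Their transcripts were followed over all 11 arrays of an Arabidopsis thaliana inflorescence study. The members were the probe sets whose only annotated gene has 1 of these symbols, which gave 3 probe sets among 22746 that are not controls. All 3 lay among the 17910 probe sets kept for testing, each with a log2 value of at least 4 on at least 4 arrays, and all 3 were above that level on every array.

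The chloroplast NDH complex sits in the thylakoid membrane, takes electrons from ferredoxin and passes them to plastoquinone, which forms a route of cyclic electron flow around photosystem I. It is related to respiratory complex I, is built from plastid-encoded and nuclear-encoded subunits, and needs nuclear factors for its assembly and for the splicing and editing of the plastid ndh transcripts. It is best known from leaves, where it is a minor component of the thylakoid and is used mainly under stress or fluctuating light.

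The study compared inflorescences that lack NGATHA function with wild-type inflorescences. NGATHA1 to NGATHA4 (NGA1 to NGA4) are B3-domain transcription factors known for their role in style and stigma development. The nga quadruple mutant, with 2 arrays, carries the alleles nga1-1, nga2-1, nga3-1 and nga4-1. The amiR-NGA plants, with 2 arrays, carry 35S:miR-NGA, an artificial microRNA against all 4 genes that is driven by the viral 35S promoter, which acts in most cells. Wild type had 7 arrays. All plants were of the Ler ecotype and 30 days old, and the tissue was inflorescence with flowers up to stage 12. A note on long days stands on wild-type replicates 2, 3 and 4 and on no other array. The series text groups both NGATHA-deficient genotypes, here called nga-deficient (n = 4). The number of transgenic lines, and whether replicates were separate plants, are not stated, and each p-value here reflects only how far the sampled arrays scatter, possibly for technical reasons.

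Some arrays stood apart. NGA1 had 6.95 and 6.50 on the log2 scale in the quadruple mutant and 5.02 and 4.88 in amiR-NGA, against 5.60 to 5.99 on wild-type replicates 1 to 4 and 10.50 and 10.51 on wild-type replicates 5 and 7, with replicate 6 higher still. On 4 arrays labelled wild type the targeted gene was thus no higher than in the quadruple mutant, and "wild type" below means the label. In nga-deficient arrays NGA3 and NGA4 fell, with log2 differences of -1.33 and -1.49 (limma adjusted p = 0.000592 and 0.000253), and NGA2 differed by -0.28 (limma adjusted p = 0.302). NGA2 fell by 0.62 in the quadruple mutant and differed by 0.06 in amiR-NGA (limma adjusted p = 0.0201 and 0.844). The difference between 3′ and 5′ actin control probe sets, a measure of RNA integrity and labelling, was 2.11 log2 units in quadruple mutant replicate 1 and 2.05 and 2.1 in wild-type replicates 1 and 2, against 1.09 to 1.31 on the other 8 arrays. The labelled tissue could be checked only in part. None of the 9 floral organ identity genes looked for was matched to a probe set of 1 gene. Of 7 tapetum and pollen genes 3 were measured, and the pollen genes PPME1, VGDH2, VGD1 and RABA4D were not among them. AMS, a regulator of tapetum development, ranged over 5.95 to 6.91 log2 units in nga-deficient arrays and 6.12 to 7.25 in wild type.

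All 3 NDH subunit transcripts were lower in nga-deficient inflorescences than in wild type. The fall was 1.83-fold for NdhL, 1.74-fold for NdhN and 1.56-fold for NdhS, and each passed an adjusted p of 0.05 when the nga-deficient genotypes were pooled. In each gene the lowest values were those of amiR-NGA, those of the quadruple mutant lay next, and those of wild type were the highest on average. Of all kept probe sets, 3.09% were called lower in this comparison and 4.42% were called in either direction.

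NdhL, at locus AT1G70760, encodes a subunit needed for the stability of the stroma-facing arm of the complex. Its log2 expression values were 7.78 and 7.53 in the quadruple mutant and 7.10 and 7.14 in amiR-NGA, against 8.89, 8.60, 8.07, 8.0, 8.35, 8.29 and 7.64 in wild-type replicates 1 to 7. Wild-type replicate 7 was the lowest of its group and lay below quadruple mutant replicate 1, so that the groups overlapped. The other 6 wild-type arrays lay above every nga-deficient array, and the share of kept probe sets with such a pattern was not counted. NdhL averaged 7.39 ± 0.32 in nga-deficient arrays (SD, n = 4) and 8.26 ± 0.41 in wild type (SD, n = 7). The log2 difference was -0.87 with an SE of 0.21 and a 95% interval of -1.34 to -0.41 (limma, adjusted p = 0.0393).

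NdhN, at locus AT5G58260, encodes a subunit of the same stroma-facing arm. It had log2 values of 7.73 and 7.77 in the quadruple mutant and 7.13 and 7.36 in amiR-NGA, against 8.17, 8.39, 8.06, 8.05, 8.73, 8.72 and 7.95 in wild-type replicates 1 to 7. Every nga-deficient array lay below every wild-type array, and within wild type replicates 5 and 6 stood above the rest. NdhN averaged 7.50 ± 0.31 in nga-deficient arrays (SD, n = 4) and 8.29 ± 0.32 in wild type (SD, n = 7). The log2 difference was -0.80 with an SE of 0.18 and a 95% interval of -1.19 to -0.40 (limma, adjusted p = 0.0307).

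NdhS, at locus AT4G23890, encodes the subunit at which ferredoxin docks. Its log2 values were 8.94 and 8.83 in the quadruple mutant and 8.56 and 8.70 in amiR-NGA, against 9.87, 9.59, 9.27, 9.35, 9.46, 9.27 and 8.99 in wild-type replicates 1 to 7. The groups did not overlap, but the gap between quadruple mutant replicate 1 and wild-type replicate 7 was narrow. NdhS averaged 8.76 ± 0.16 in nga-deficient arrays (SD, n = 4) and 9.40 ± 0.28 in wild type (SD, n = 7). The log2 difference was -0.64 with an SE of 0.15 and a 95% interval of -0.97 to -0.32 (limma, adjusted p = 0.0322). Thus 2 of the 3 genes had every nga-deficient array below every wild-type array, a pattern found in 4.32% of all kept probe sets. In such bulk samples, fewer cells that express a gene and less RNA per cell cannot be told apart.

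**Figure D1:**
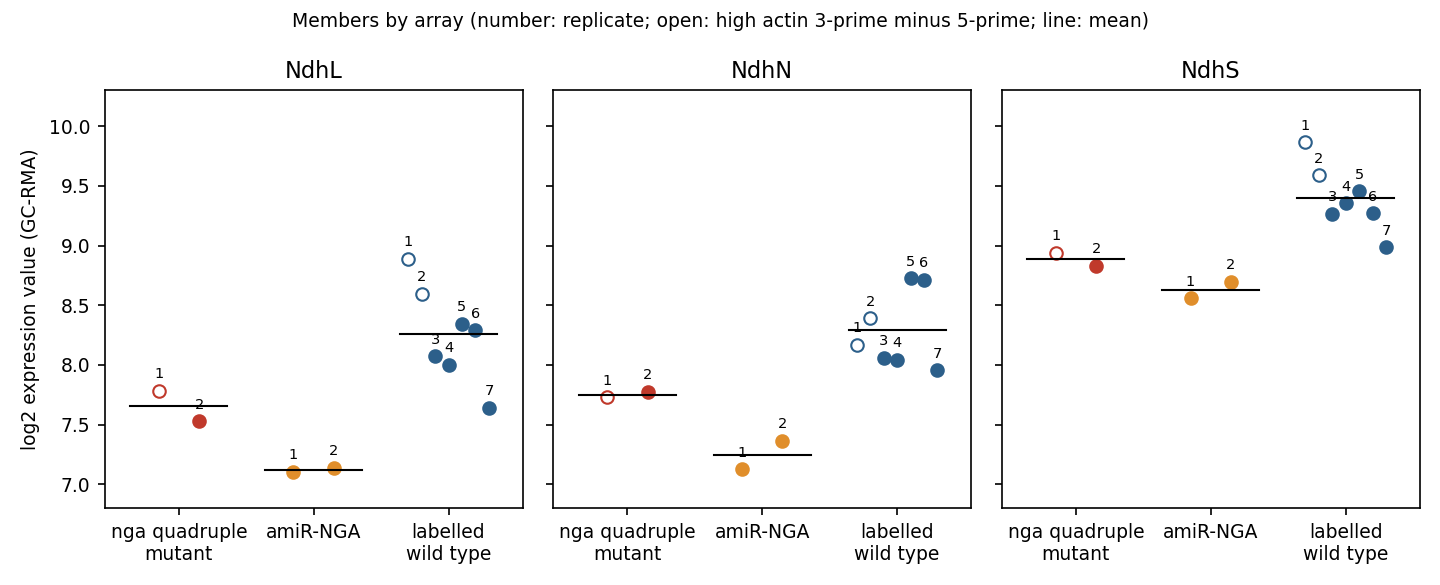
Log2 expression values (GC-RMA) of NdhL, NdhN and NdhS on each array, by group, where a point is an array, its number the replicate, a line the group mean, and an open point an array with an actin 3′ minus 5′ difference above 2.0. The amiR-NGA arrays are the lowest in each panel, and wild-type replicate 7 is the lowest of its group in all 3.

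The calls rested on narrow margins. All 3 differences stayed below 0 in each of the 25 other ways in which the comparison was run, but only 6 of the 25 kept all 3 genes past the threshold, 7 kept 2 of them, 5 kept 1 and 7 kept none. Against wild-type replicates 5, 6 and 7 alone, the arrays with high NGA1, the log2 differences were -0.70 for NdhL, -0.97 for NdhN and -0.48 for NdhS (limma adjusted p = 0.203, 0.119 and 0.181). Against wild-type replicates 1 to 4 alone they were -1.0, -0.67 and -0.76 (limma adjusted p = 0.0527, 0.0668 and 0.0390). When quadruple mutant replicate 1 and wild-type replicates 1 and 2, which had a high actin difference, were dropped, they were -0.81, -0.88 and -0.57 (limma adjusted p = 0.0296, 0.0568 and 0.0270).

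Single arrays also decided calls. NdhL missed the threshold without wild-type replicate 2, 3, 5 or 6, without quadruple mutant replicate 2, and without either amiR-NGA array, with limma adjusted p between 0.0563 and 0.125. NdhN missed it without any 1 of the 4 nga-deficient arrays, with limma adjusted p between 0.05002 and 0.108. NdhS missed it without wild-type replicate 3, 4 or 5 and without any 1 of the nga-deficient arrays, with limma adjusted p between 0.0513 and 0.111. Leaving out wild-type replicate 7, the lowest of its group, gave limma adjusted p of 0.0196 for NdhL, 0.0277 for NdhN and 0.0178 for NdhS.

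**Figure D2:**
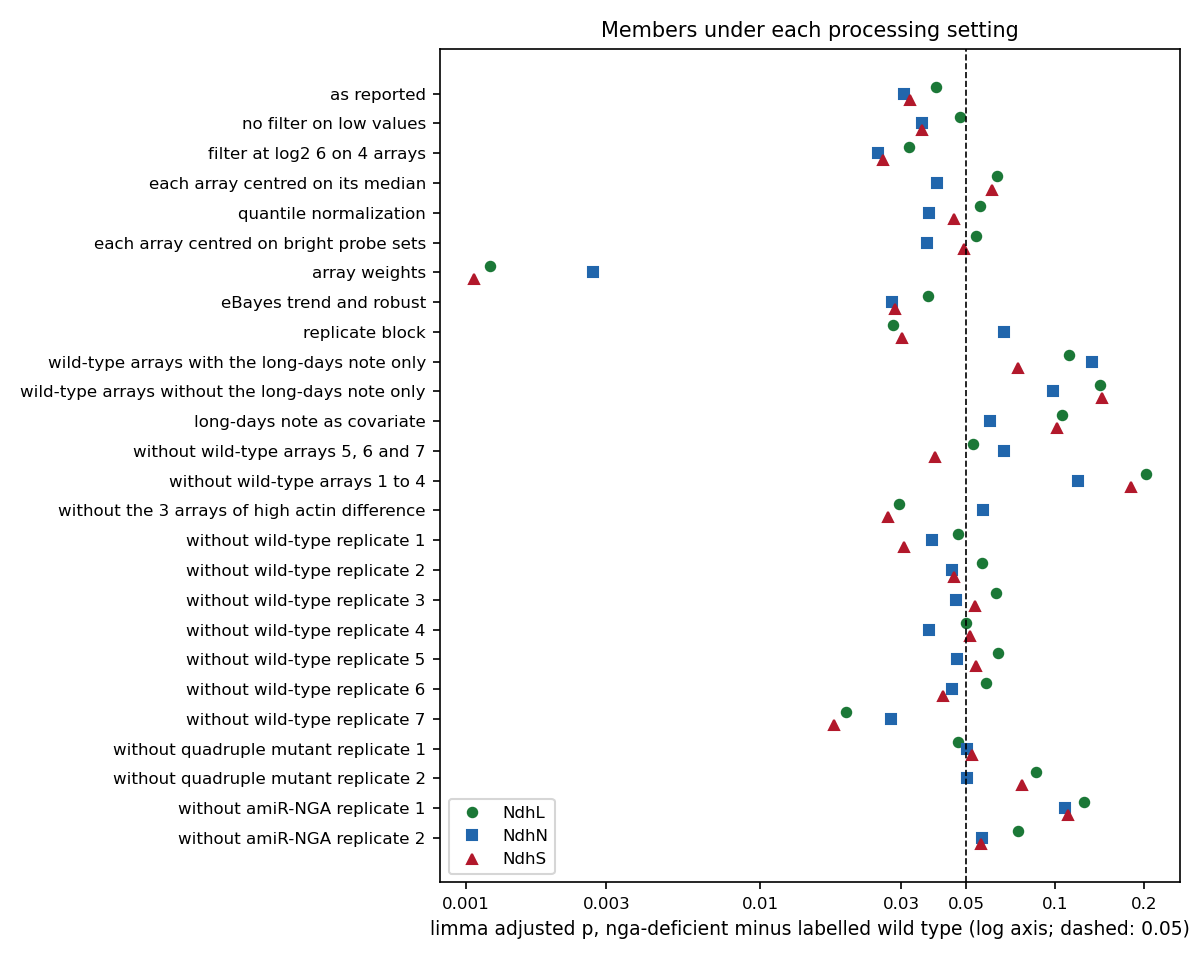
Adjusted p from limma (log axis) for the nga-deficient minus wild type difference of each gene, as reported and under each of 25 alternatives; the dashed line marks 0.05. The points of all 3 genes crowd around the line, with array weights at the low end and wild-type replicates 5 to 7 alone at the high end.

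The genotypes were then set against wild type one at a time, in 1 fit over the 3 groups that share the same wild-type arrays. In the quadruple mutant the genes averaged 7.65 ± 0.18 for NdhL, 7.75 ± 0.03 for NdhN and 8.89 ± 0.08 for NdhS (SD, n = 2). The log2 differences from wild type were -0.61, -0.54 and -0.51 with SEs of 0.26, 0.21 and 0.19, and none passed the threshold (limma adjusted p = 0.197, 0.164 and 0.143). The share called lower among all kept probe sets was 2.23%. For NdhN and NdhS both quadruple mutant arrays lay below all wild-type arrays, as they did for 10.7% of kept probe sets.

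In amiR-NGA the averages were 7.12 ± 0.03 for NdhL, 7.25 ± 0.17 for NdhN and 8.63 ± 0.10 for NdhS (SD, n = 2). NdhN fell by 1.05 on the log2 scale, 2.07-fold, with an SE of 0.21 (limma adjusted p = 0.0406). NdhL and NdhS differed by -1.14 and -0.77 with SEs of 0.26 and 0.19 and missed the threshold (limma adjusted p = 0.0713 and 0.0978). The 1 call among 3 stands beside a share called lower of 0.815% of all kept probe sets. Both amiR-NGA arrays lay below all wild-type arrays for all 3 genes, a pattern that 8.36% of kept probe sets showed. The NdhN call was lost without wild-type replicate 2, 3, 4, 5 or 6 and without either array of each nga-deficient genotype, with limma adjusted p between 0.0518 and 0.735. Without 1 amiR-NGA array that group is a single array, assumed to vary like the other groups, which by itself widens the error. NdhL passed without wild-type replicate 1 or 7, and NdhS without wild-type replicate 7, with limma adjusted p of 0.0474, 0.0230 and 0.0417.

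The difference between the nga-deficient genotypes was tested directly. The quadruple mutant minus amiR-NGA was 0.53 for NdhL, with a 95% interval of -0.17 to 1.23, 0.51 for NdhN, with an interval of -0.07 to 1.08, and 0.26 for NdhS, with an interval of -0.26 to 0.77. None passed (limma adjusted p = 0.765, 0.739 and 0.851), and 0.101% of kept probe sets were called higher in the quadruple mutant. The arrays themselves did not overlap: for all 3 genes both quadruple mutant arrays lay above both amiR-NGA arrays, which was also so for 18.0% of kept probe sets. The order amiR-NGA, quadruple mutant, wild type was thus the same in all 3 genes, with neither step to or from the quadruple mutant past the threshold. Quadruple mutant replicate 1 had a high actin difference and was the higher mutant array for NdhL and NdhS. Over 26 alternatives the quadruple mutant minus amiR-NGA difference ran from 0.19 to 0.66 among the 3 genes. The part of RNA quality in this order was not tested.

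Among wild-type arrays, those with the long-days note averaged 8.22 ± 0.33 for NdhL, 8.17 ± 0.19 for NdhN and 9.40 ± 0.17 for NdhS (SD, n = 3), and those without it 8.29 ± 0.51, 8.39 ± 0.39 and 9.40 ± 0.37 (SD, n = 4). The log2 differences were -0.07, -0.23 and 0.01, with 95% intervals of -0.71 to 0.57, -0.73 to 0.28 and -0.47 to 0.49. No gene passed (limma adjusted p = 1.00 for each). The share of kept probe sets called in either direction was 0.0%, with 289 at an unadjusted p under 0.05. With array weights 446 were called, among them NdhN at a log2 difference of -0.57 (limma adjusted p = 0.0437). The day length of the nga-deficient plants is not stated in the labels.

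**Figure D3:**
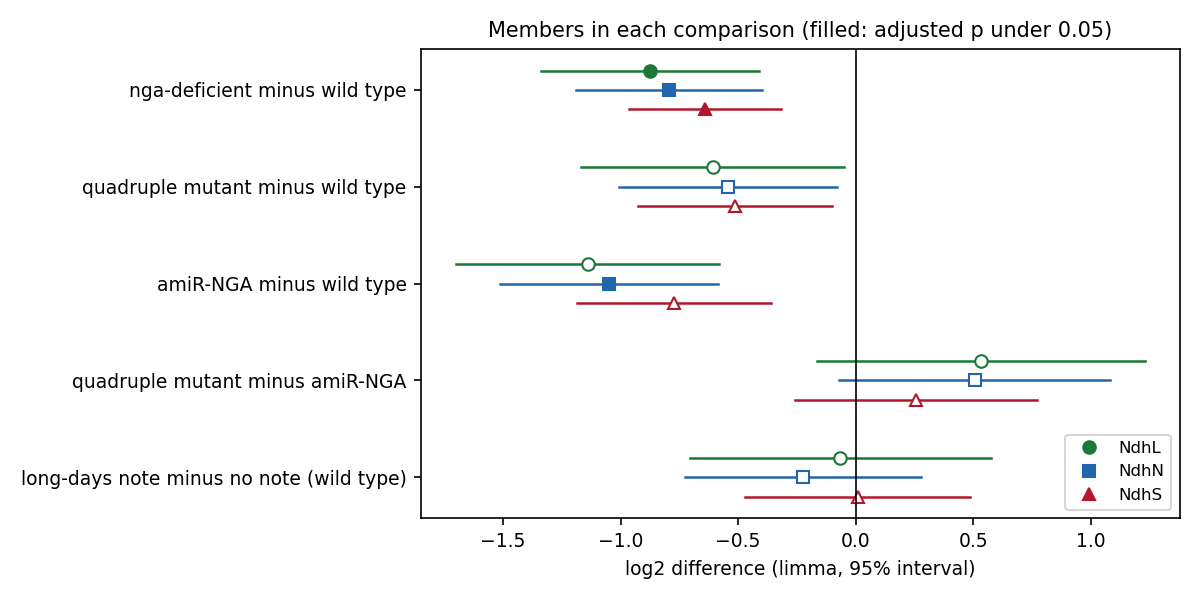
Log2 differences of NdhL, NdhN and NdhS in the 5 comparisons, with 95% intervals from limma; filled points passed an adjusted p of 0.05. All differences from wild type lie below 0, those of amiR-NGA farther than those of the quadruple mutant, and the intervals between the nga-deficient genotypes and between the day-length notes include 0.

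Within wild type, NdhL and NdhS were the pair of the 3 that passed the test. The pair that passed by Pearson's r changed when the arrays of high actin difference were left out. Without those arrays r was nearly the same for NdhL with NdhN and NdhL with NdhS. NdhL and NdhS followed each other over the 7 arrays, with Pearson's r of 0.954 (exact permutation p = 0.00278, adjusted over 3 pairs 0.00833) and Spearman's rho of 0.893 (exact permutation p = 0.0123, adjusted 0.0369). Both were highest on replicates 1 and 2 and lowest on replicate 7. Without replicates 1 and 7, the arrays farthest from the median of NdhL, r was 0.788. NdhL and NdhN gave an r of 0.407 (exact permutation p = 0.367, adjusted 0.550) and a rho of 0.679 (exact permutation p = 0.110, adjusted 0.164), with an r of 0.597 without the same arrays. NdhN and NdhS gave an r of 0.208 (exact permutation p = 0.650, adjusted 0.650) and a rho of 0.500 (exact permutation p = 0.267, adjusted 0.267), with an r of 0.690 without replicates 5 and 6. NdhN was highest on replicates 5 and 6, where NdhL and NdhS were in the middle of their range.

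The arrays on which NdhL and NdhS peaked are those with the high actin difference. On the 5 other wild-type arrays r was 0.864 for NdhL and NdhN (exact permutation p = 0.00833, adjusted 0.025). Their rho was 1 (exact permutation p = 0.0167, adjusted 0.05). No lower p for rho is possible with 5 arrays, so a single pair could not pass after adjustment. On the same arrays r was 0.856 for NdhL and NdhS (exact permutation p = 0.0583, adjusted 0.0875) and 0.584 for NdhN and NdhS (exact permutation p = 0.317, adjusted 0.317). Without replicates 1 and 2 the call by Pearson's r was thus made for NdhL with NdhN and not for NdhL with NdhS. The r of these pairs, 0.864 and 0.856, were nearly equal, so they do not show that the partner of NdhL changed. No pair passed by Spearman's rho, which for that reason says little, and 5 arrays are few for any relation. The part of RNA quality in these relations was not tested.

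**Figure D4:**
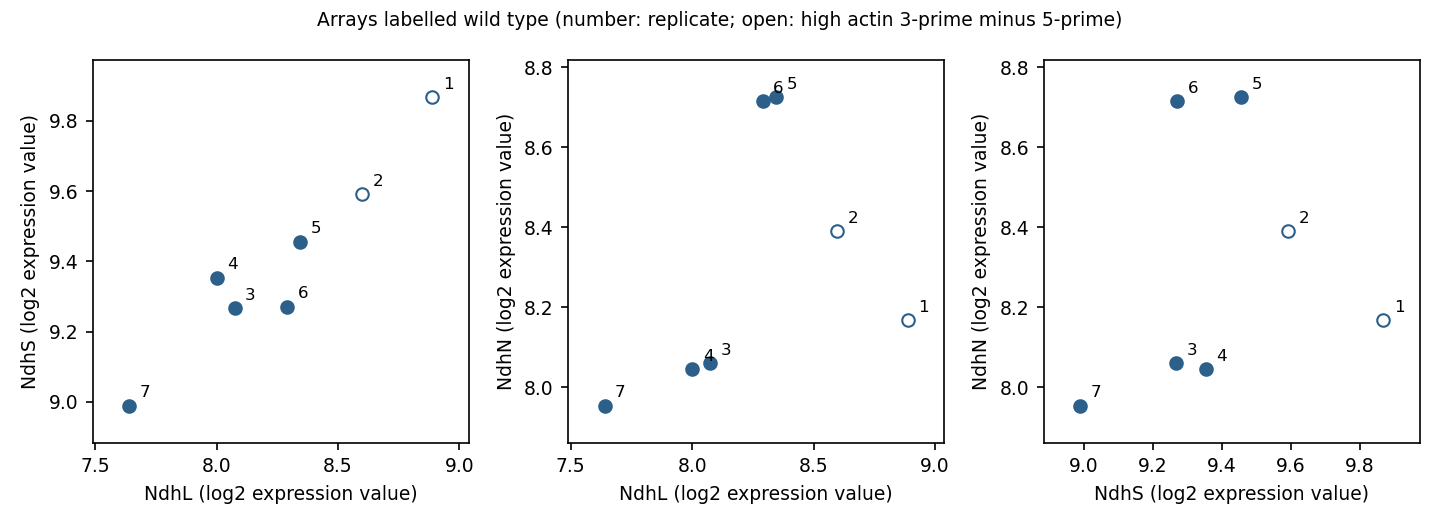
Log2 expression values of each pair of genes on the 7 arrays labelled wild type, with the replicate number beside each point and open points for the arrays of high actin difference. NdhL and NdhS lie near 1 line (r = 0.954), whereas NdhN is highest on replicates 5 and 6.

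Over all 11 arrays, group differences included, the same pairing appeared among 10100 named probe sets with 1 gene. NdhS was the probe set most like NdhL, and NdhL the one most like NdhS, with an r of 0.979. Next to NdhL came AT3G59780 with an r of 0.976 and AT4G26860 with 0.971. Next to NdhS came AT4G26860 with an r of 0.967 and LHCB4.2, a minor antenna protein of photosystem II, with 0.963. NdhN was most like AT5G37360, AT4G31530 and AT5G48490, with an r of 0.952, 0.947 and 0.930, while NdhL ranked 99 in likeness to it, with 0.823, and NdhS ranked 166, with 0.776. These values describe 11 arrays that share their group differences and actin values.

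The group means were then taken away, which leaves residuals that come in large part from the same wild-type arrays as above. NdhL and NdhS had an r of 0.947, which put NdhS in rank 3 for NdhL, behind AT4G05160 with 0.950 and AtS40-3 with 0.947. AtS40-3 was dim, at 5.37 and 5.19 log2 units on wild-type replicates 1 and 2 and 3.99 to 4.66 on the other wild-type arrays. The residuals of NdhN were most like those of AT2G10940, with an r of 0.962, followed by AT3G48420 and AT5G59130, each with 0.931. Its own r with NdhL was 0.389 and with NdhS 0.224. The residuals of NdhS were most like those of AT5G43100, with an r of 0.958, AT3G18230, with 0.953, and AT1G64430, with 0.948. Within wild type these genes, AT4G05160 and AtS40-3 were all highest on replicates 1 and 2, of high actin difference. The part of RNA quality in these likenesses was not tested.

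The other genes of the complex were taken from lists by role. Of 8 nuclear genes for the stroma-facing arm and the electron-donor site, 4 had a probe set of their own. All 4 fell, beside 3.09% of all kept probe sets called lower, but NdhL, NdhN and NdhS, already given above, are among them. The one that is not NdhL, NdhN or NdhS, AT2G04039, has only its locus number in the annotation. It had log2 values of 7.99 and 7.59 in the quadruple mutant and 6.95 and 7.09 in amiR-NGA, against 8.35, 8.84, 8.12, 7.99, 8.34, 8.40 and 8.03 in wild-type replicates 1 to 7. The amiR-NGA arrays were again the lowest, and the groups overlapped, since wild-type replicate 4 lay just below quadruple mutant replicate 1. The other 6 wild-type arrays lay above every nga-deficient array, a pattern whose share among kept probe sets was not counted. Its log2 difference was -0.89 with an SE of 0.21 (limma adjusted p = 0.0316), and in amiR-NGA alone it fell by 1.28 (limma adjusted p = 0.0163). The median log2 difference of the 4 was -0.83, against -0.02 over all kept probe sets, of which 52.9% lay below 0. None of 10 nuclear genes for the membrane-bound and lumen-side parts of the complex had a probe set of 1 gene here.

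Of 12 plastid-encoded subunits, 10 had a probe set of 1 gene and 9 were kept, ndhF lying at 3.02 to 3.41 log2 units on all arrays. Only ndhA, a membrane subunit, passed the threshold in the pooled comparison, beside 3.09% of all kept probe sets called lower. Across the 25 alternatives, 0 to 8 of the 9 were called lower. Its log2 values were 8.96 and 8.35 in the quadruple mutant and 8.41 and 8.59 in amiR-NGA, against 9.38, 9.11, 9.44, 9.57, 9.58, 9.90 and 9.27 in wild-type replicates 1 to 7. Every nga-deficient array lay below every wild-type array, a pattern found in 4.32% of all kept probe sets. Unlike in the nuclear subunit genes, the quadruple mutant held the lowest array. The log2 difference of ndhA was -0.89 with an SE of 0.16 (limma adjusted p = 0.00937). It fell by 0.81 in the quadruple mutant alone (limma adjusted p = 0.0465) and differed by -0.96 in amiR-NGA (limma adjusted p = 0.0524).

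The other 8 plastid transcripts had log2 differences below 0 in the pooled comparison that did not pass. Of these, ndhE, ndhG, ndhH and ndhK were dim, within 4.25 to 5.88 log2 units on all arrays. The membrane subunits ndhC, ndhD, ndhE and ndhG gave -0.40, -0.68, -0.43 and -0.14 (limma adjusted p = 0.0840, 0.0761, 0.316 and 0.676). The subunits of the stroma-facing arm, ndhH, ndhI, ndhJ and ndhK, gave -0.35, -0.52, -0.51 and -0.39 (limma adjusted p = 0.193, 0.101, 0.346 and 0.344). The median of the 9 was -0.43. In the quadruple mutant alone ndhE, ndhG and ndhK lay above 0, at 0.05, 0.13 and 0.09 (limma adjusted p = 0.940, 0.745 and 0.867), and in amiR-NGA all 9 lay below 0.

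Among 18 nuclear factors for assembly of the complex or maturation of ndh transcripts, 8 were measured. Of these 1 fell, beside 3.09% of all kept probe sets called lower. CRR28, a pentatricopeptide repeat protein that edits plastid ndh transcripts, had log2 values of 5.75 and 5.65 in the quadruple mutant and 5.80 and 5.99 in amiR-NGA, against 6.01, 6.28, 6.17, 6.23, 6.15, 6.36 and 6.26 in wild-type replicates 1 to 7. Every nga-deficient array lay below every wild-type array, by a margin of 5.99 against 6.01, a pattern found in 4.32% of all kept probe sets. The log2 difference was -0.41 with an SE of 0.10 (limma adjusted p = 0.0359). AT5G52780, with only its locus number in the annotation, differed by -0.52 (limma adjusted p = 0.0515).

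The remaining editing factors gave log2 differences of -0.14 for CRR21, 0.02 for CRR22, 0.11 for OTP84 and -0.13 for OTP85 (limma adjusted p = 0.495 to 0.926). CRR41, an assembly factor of the stroma-facing arm, gave -0.20, and Cpn60beta4, a chaperonin subunit needed to fold ndhH, gave -0.07 (limma adjusted p = 0.575 and 0.846). The median of the 8 was -0.14. Of 10 genes that link the complex to photosystem I or belong to the other route of cyclic flow, only PGRL1B, of the antimycin-sensitive route, was measured, at -0.18 (limma adjusted p = 0.518).

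**Figure D5:**
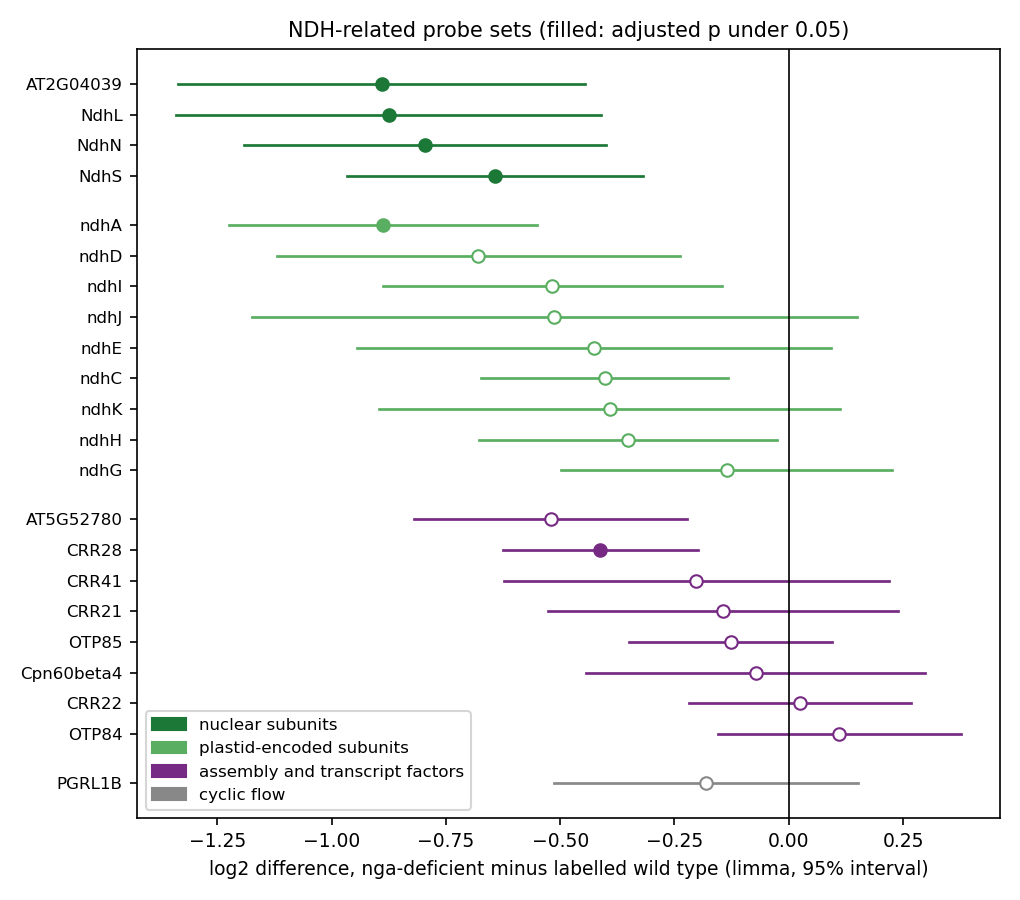
Log2 differences (nga-deficient minus wild type) with 95% limma intervals for the kept probe sets of NDH-related genes, by list; filled points passed an adjusted p of 0.05. The 4 nuclear subunits lie at or below -0.64, the plastid-encoded subunits spread between -0.89 and -0.14, and most assembly and transcript factors lie near 0.

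The lower values were not confined to NDH genes. Of 57 nuclear genes on the lists for the photosystems, the cytochrome b6f complex and ATP synthase, and the Calvin-Benson cycle, 12 were measured, of which 5 fell and 0 rose, beside 3.09% of all kept probe sets called lower. Their log2 differences were -0.99 to -0.24, with a median of -0.42. These calls also depended on the setting. Over the 25 alternatives they ran from 1 to 5 for photosystem II and 0 to 1 for photosystem I. They ran from 0 to 2 for cytochrome b6f and ATP synthase and 0 to 3 for the Calvin-Benson cycle. LHCB4.2 and LHCB4.3, minor antenna proteins of photosystem II, fell by 0.99 and 0.74 (limma adjusted p = 0.00549 and 0.0186). PRK, which makes the substrate that Rubisco carboxylates, fell by 0.76, and RCA, the activase of Rubisco, by 0.54 (limma adjusted p = 0.00437 and 0.0332). ATPC1, the gamma subunit of the chloroplast ATP synthase, fell by 0.48 (limma adjusted p = 0.0499).

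Mitochondrial complex I is the respiratory relative of the NDH complex. Of its 13 listed nuclear genes 3 were measured, none passed, and their log2 differences were all above 0, with a median of 0.19. FRO1, a subunit with the largest difference of the 3, had log2 values of 10.28 and 10.11 in the quadruple mutant and 10.15 and 9.99 in amiR-NGA, against 10.07, 9.52, 9.84, 9.89, 9.77, 9.88 and 9.90 in wild-type replicates 1 to 7. The groups overlapped, since amiR-NGA replicate 2 lay below wild-type replicate 1. Its log2 difference was 0.29 with an SE of 0.11 (limma adjusted p = 0.137). Differences between these lists were not tested. For the measured genes of the tapetum and pollen list, AMS, SPL and AT5G07230, the log2 differences were -0.15, -0.03 and -0.11 and none passed (limma adjusted p = 0.720, 0.960 and 0.749). The pollen genes on that list, PPME1, VGDH2, VGD1 and RABA4D, were not measured. The part of tissue composition in the NDH values was not tested.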

How the data were processed

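The authors extracted inflorescence RNA and hybridised it to Affymetrix ATH1 arrays. Log2 values were deposited, which the authors computed by GC-RMA in R 2.7.2 (submitters' processing notes) with Bioconductor 2.2 (series text). Differences of dim transcripts are less reliable in GC-RMA values, and the method assumes similar overall distributions between arrays. Raw intensities were not used here. Of 22746 probe sets other than controls, 17910 with a log2 value of at least 4 on at least 4 arrays were kept, and 13513 have 1 gene in the platform annotation. Symbols were updated through a RefSeq gene table (TAIR10.1).

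Differences were fitted in R 4.3.3 by lmFit and eBayes of limma 3.58.1, with Benjamini-Hochberg adjustment over all kept probe sets, two-sided, and a threshold of 0.05. The fit was tested on simulated data. Correlations within wild type used exact two-sided permutation of pairings (numpy 2.4.6), with ranks and the adjustment over 3 pairs from scipy 1.17.1. Members, gene lists and tests were chosen with earlier results of these data known. Named genes were the members, all kept NDH and cyclic-flow genes, up to 4 of each other list (those past the threshold, then the brightest), and the 3 probe sets most like each member. Precision is limited by how few arrays each group has.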

Additional observations from a re-analysis of the deposited data

How the results depend on the processing

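Every alternative kept NdhL, NdhN and NdhS below wild type, for nga-deficient arrays together and for each genotype alone. With 1 array left out, the nga-deficient log2 differences ran from -1.01 to -0.77 for NdhL, -0.89 to -0.67 for NdhN and -0.71 to -0.56 for NdhS, and those of amiR-NGA from -1.24 to -1.04, -1.17 to -0.93 and -0.84 to -0.69. Scaling ended calls with little change in size: centring on the array median left -0.87 for NdhL and -0.63 for NdhS (limma adjusted p = 0.0636 and 0.0610), and for NdhL quantile normalization left -0.87 and centring on bright probe sets -0.86 (limma adjusted p = 0.0555 and 0.0539). Fewer wild-type arrays ended calls too. With only those with the long-days note the differences were -0.84, -0.67 and -0.65, with only those without it -0.90, -0.89 and -0.64, and with the note as a covariate the same values. Without wild-type replicates 5 to 7, NdhL gave -1.0 and NdhN -0.67, without replicates 1 to 4 the genes gave -0.70, -0.97 and -0.48, and with the 3 high-actin arrays dropped NdhN gave -0.88.

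For amiR-NGA, NdhN missed the threshold with -0.92 (noted wild type only), -1.15 (others only, and the note as covariate), -0.92 (without wild-type replicates 5 to 7), -1.22 (without 1 to 4), -1.05 (without high actin arrays) and -1.05 (only the groups compared). NdhL and NdhS passed it with array weights (-1.03 and -0.69) and without high actin arrays (-0.95 and -0.64). Deviations of same-numbered replicates gave r of 0.17 and -0.27 between quadruple mutant and wild type and 0.04 and -0.18 between amiR-NGA and wild type. Between amiR-NGA and quadruple mutant r was 0.285. With 2 arrays in a genotype the deviations are equal and opposite, so these r cannot settle whether the numbers are pairs. They were not taken as pairs. A replicate block, which rests on replicates 1 and 2 only, gave -1.36 for NdhL, -0.78 for NdhN (limma adjusted p = 0.0673) and -0.97 for NdhS in nga-deficient arrays, and -1.62, -1.03 and -1.10 in amiR-NGA, where all 3 passed the threshold.

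The long-days difference changed sign for NdhS with median centring, at -0.016, and array weights, at -0.069, and NdhN passed the threshold with array weights, at -0.57, and over single arrays left out it ran from -0.28 to 0.13 for NdhL, -0.37 to -0.11 for NdhN and -0.13 to 0.17 for NdhS. The correlation of NdhN with NdhS ran from -0.14 to 0.51 in the same way, changing sign without replicate 7. Leaving out wild-type replicates 1 and 2 was chosen after seeing the data. Pearson's r was then nearly equal, at 0.864 for NdhL with NdhN, now past the threshold, and 0.856 for NdhL with NdhS, no longer past it. The 792 probe sets called in nga-deficient arrays were 229 to 973 with 1 array left out and 122 to 2977 otherwise. The nuclear NDH subunit list had 0 to 4 calls and the plastid-encoded list 0 to 8. The assembly and transcript factors had 0 to 2 calls, and at most 1 mitochondrial complex I gene passed, higher. The cause of these changes was not tested. Dim transcripts such as ndhF are limited by their signal.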

Other observations

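The measured loci on either side of the NDH genes differed in sign. AT1G70770, the protein-coding gene next to NdhL, gave a log2 difference of 0.23 between nga-deficient arrays and wild type (limma adjusted p = 0.129), and AT1G70740, 2 genes away on the other side, fell by 0.42 (limma adjusted p = 0.0362). For NdhN the nearest measured neighbours, each 2 genes away, were FHIT at 0.06 and AT5G58280 at 0.00 (limma adjusted p = 0.788 and 0.989). For NdhS they were AT4G23885, the next gene, at 0.30, and AT4G23910, 3 genes away, at -0.38 (limma adjusted p = 0.137 and 0.0715).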
